A study of Mus musculus with 10 samples.

Results

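Fatty acid uptake and oxidation was described through 33 genes, a fixed list of mouse symbols matched to the Ensembl identifiers of the count tables, which list 55357 genes in all. They cover the entry of fatty acids into the cell, their activation and carnitine-dependent import, the enzymes of mitochondrial beta-oxidation, and genes that tune the pathway. The rule names the genes and uses no threshold on a measured value, but the list was chosen with earlier results of these data known. Poly(A) RNA was sequenced from 6 hearts of Cd163-/- mice on a C57BL/6 background. Transverse aortic constriction (TAC) in male mice 8 weeks of age is described in the design text, a surgery in which the aorta is tied to put a pressure load on the heart. Of the hearts, 3 came from mice given saline and 3 from mice given the recombinant mouse cytokine interleukin-10 (IL-10), which dampens inflammation, subcutaneously at 50 µg/kg/day on 12 days between day 0 and day 27 after the operation. The other table holds 4 libraries of peritoneal macrophages, recruited by thioglycolate for 3 days, selected by adherence and exposed for 48 h to the glucocorticoid drug dexamethasone at 100 nM. Of these libraries 2 were wild type and 2 Cd163-/-. CD163 is a macrophage scavenger receptor for haemoglobin bound to haptoglobin. All hearts thus have the Cd163-/- label, all macrophages received the steroid, the label of a single heart does not name its surgery, and sham-operated or wild-type hearts were not analysed here. Whether libraries of a group stem from separate animals or cultures is not stated, so the p-values cover only the spread between these libraries, which may be technical.

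Long-chain fatty acids enter cells with the help of carriers, are bound by small binding proteins and are joined to coenzyme A. The acyl group is then passed to carnitine, carried through the inner mitochondrial membrane and handed back to coenzyme A, and malonyl-CoA blocks the entry step. Inside, each turn of beta-oxidation oxidises, hydrates, oxidises again and cleaves the acyl chain to release acetyl-CoA, while electrons pass through the electron transfer flavoprotein to ubiquinone. The heart draws most of its energy from this pathway, and macrophages use it to an extent that varies with their activation.

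Library totals ranged from 13.5 to 14.9 M counts in hearts (M for mega) and from 16.7 to 18.6 M in macrophages, and CPM are counts scaled to 1 M per library after TMM normalisation. On that scale 3 counts equal 0.192 to 0.220 CPM in a heart and 0.149 to 0.191 CPM in a macrophage library. Mitochondrially encoded genes took 33.7% to 39.4% of heart counts. Cd163 was at 352 and 205 counts in wild-type macrophages and at 9 and 14 in knockout macrophages, but at 34 to 57 in the hearts, whose genotype is therefore taken from the labels. Markers of the labelled sources were abundant, since 12 cardiomyocyte genes summed to 46373 to 58281 CPM in hearts, and 11 macrophage genes to 25732 to 31476 CPM in the cultures. The extraction text mentions livers, and 7 hepatocyte genes summed to 1.02 to 2.64 CPM in hearts.

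Per kb of exonic length, Fabp3, the fatty acid-binding protein of heart muscle, was the most abundant member in saline hearts at 2755 ± 477 CPM per kb. Cd36, the membrane fatty acid translocase, followed at 359 ± 54.2, then the thioesterase Acot13 at 252 ± 25.5, the long-chain acyl-CoA dehydrogenase Acadl at 249.8 ± 38.2 and the thiolase Acaa2 at 227 ± 8.90 CPM per kb (n = 3 each). The lowest were Cpt1b at 0.292 ± 0.191, Acot1 at 0.987 ± 0.121 and Ucp3 at 2.24 ± 1.09 CPM per kb. Wild-type macrophages had another order, led by Cd36 at 527 ± 203, Lpl, the lipoprotein lipase that frees fatty acids from triglyceride, at 245 ± 9.77, and Fabp3 at 85.9 ± 22.1 CPM per kb (n = 2 each). Exonic length here joins the exons of all GENCODE transcripts of a gene, 10478 bases for Lpl and 823 for Fabp3. The order per kb therefore depends on the annotation. In saline hearts Lpl had the highest mean CPM, 2331 beside 2267 for Fabp3. By mean CPM 30 of 33 members were higher in saline hearts than in wild-type macrophages, and the exceptions were Cd36, Lpl and Cpt1a. The tables were normalised separately, so no test was made between them. Ppara, Ppargc1a and Ucp3 were at 1 to 4 counts in each wild-type macrophage library and Cpt1b at 0.

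**Figure D1:**
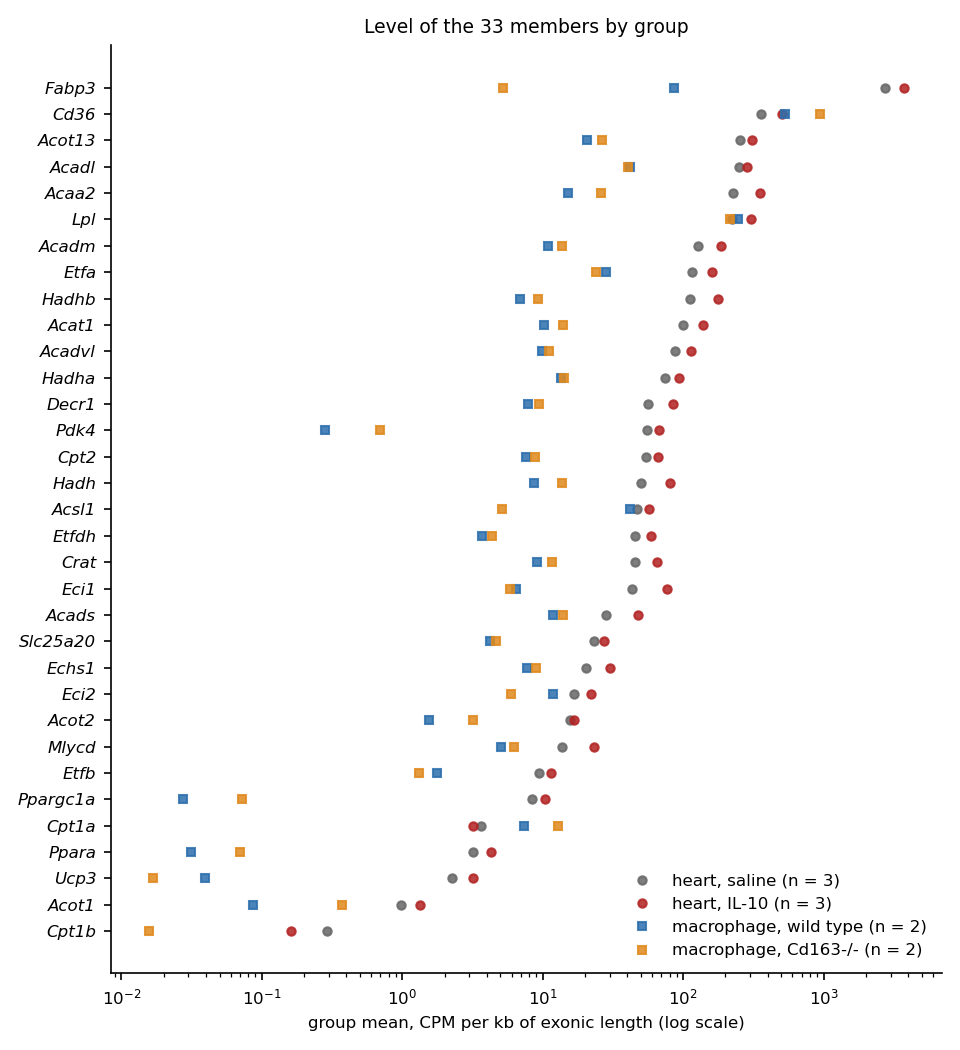
Mean level of each member in the 4 groups, as CPM per kb of exonic length on a log axis, ordered by the saline hearts (circles, n = 3 per group) with macrophages as squares (n = 2 per group). A group at 0 has no point, as for Cpt1b in wild-type macrophages. Cd36, Lpl and Cpt1a are the members whose wild-type macrophage squares lie to the right of the saline circle.

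In IL-10-treated hearts, 15 of the 32 members tested rose, or 46.9%, and 0 fell, where 6.86% of all 13718 genes tested rose and 6.7% fell (a call is an adjusted p under 0.05 in edgeR's quasi-likelihood test, by the Benjamini-Hochberg method over all genes). The rises lay mainly in the enzymes of the beta-oxidation cycle: Hadhb, Hadh, Acaa2, Echs1, Eci1, Decr1 and Acads were each between 1.48 and 1.77 times their saline level. Of the uptake and carnitine genes Cd36 and Crat rose, and Cpt1a, the non-muscle entry enzyme, was the only one of the 32 with a log2 fold change below 0. The median log2 fold change of the tested members was 0.44, against -0.0079 over all genes tested, and 31 of the 32 were above 0, against 49.1% of all genes. In 19 members every IL-10 heart exceeded every saline heart, 59.4% of those tested, where 15.7% of all genes did so, and in 0 members was every IL-10 heart lower. In bulk tissue, fewer cells of a type and less RNA per cell cannot be told apart. Without saline heart 1, saline heart 3 or IL-10 heart 2 the count of rises was 9, and without saline heart 2 it was 21.

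**Figure D2:**
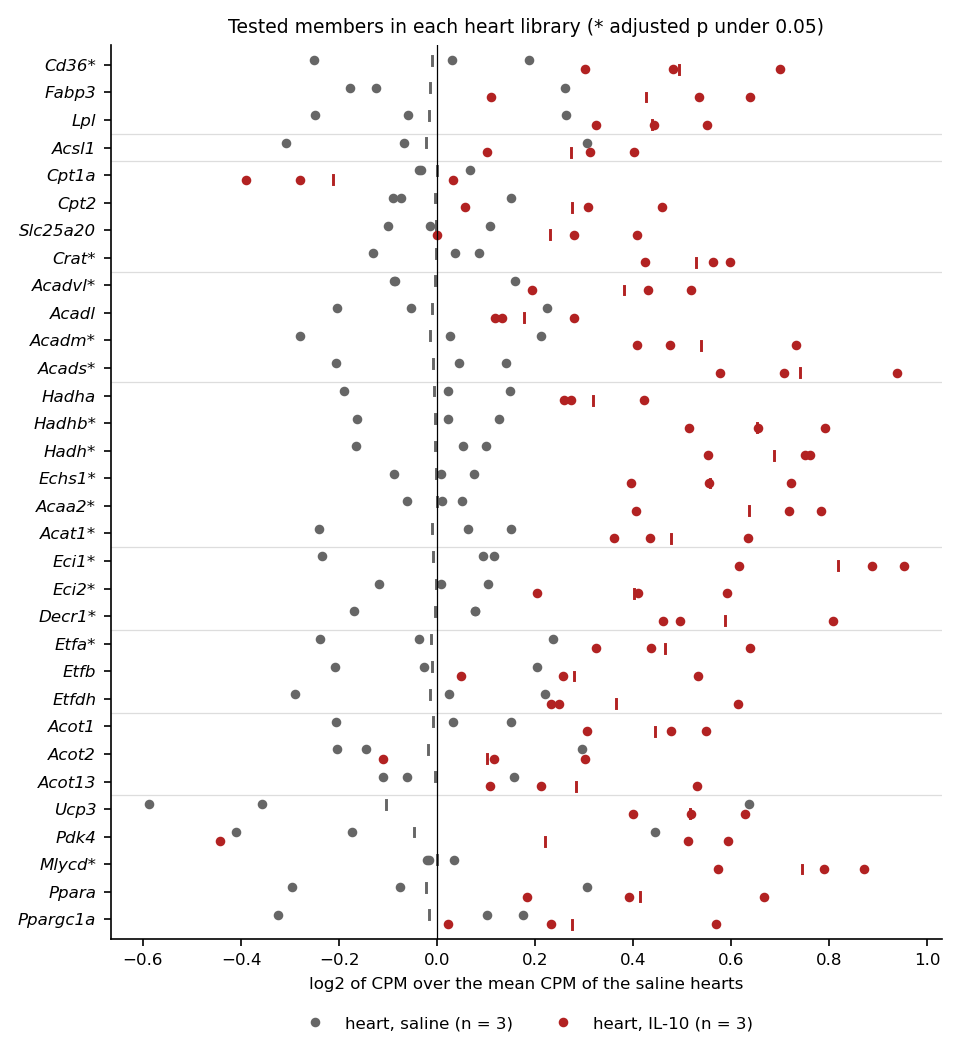
Each tested member in each heart as the log2 of its CPM over the mean of the saline hearts (grey, saline; red, IL-10; ticks, group means; n = 3 per group), with roles set apart by lines and an asterisk where the adjusted p was under 0.05. Red points lie to the right of all grey points in 19 members, and for Cpt1a both lowest points are red.

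Of the uptake genes, Cd36 (chromosome 5, 17781690 to 17888801 in GRCm38) was at 1315, 1468 and 1082 CPM after saline and 1589, 2092 and 1798 CPM after IL-10. Every IL-10 heart was above every saline heart, and Cd36 rose by 0.50 on the log2 scale (SE 0.15; edgeR adjusted p = 0.0332). Lpl stood at 2237, 2797 and 1961 CPM after saline and 3168, 3416 and 2919 CPM after IL-10, again without overlap, but with log2 0.44 (SE 0.15) it did not pass the test (edgeR adjusted p = 0.0616). Fabp3 was at 2079, 2719 and 2004 CPM after saline and 3283, 3528 and 2447 CPM after IL-10, where IL-10 heart 3 fell below saline heart 2 (log2 0.44, SE 0.16, edgeR adjusted p = 0.0847). Acsl1, the acyl-CoA synthetase that activates long-chain fatty acids in heart, was at 469, 608 and 397 CPM after saline and 610.2, 649 and 528 CPM after IL-10. These groups overlapped, with log2 0.28 (SE 0.15, edgeR adjusted p = 0.238). The call for Cd36 was lost without saline heart 1, saline heart 3 or IL-10 heart 2, with an edgeR adjusted p of 0.0954 to 0.161, and with upper-quartile scaling (0.0521). Fabp3 and Lpl were called without saline heart 2 or IL-10 heart 3, and Acsl1 without saline heart 2 (edgeR adjusted p of 0.0149 to 0.0476). With all hearts, Lpl and Fabp3 passed the DESeq2 Wald test (adjusted p = 0.0093 and 0.0244), and both were also called with no filter, with the replicate block and with scaling on cardiomyocyte markers, Lpl with limma-voom as well.

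Among the carnitine genes 1 of 4 tested rose. Crat, which moves acetyl groups between coenzyme A and carnitine, was at 223, 259 and 251 CPM after saline and 369.7, 361 and 328 CPM after IL-10. The groups were apart, and Crat rose by 0.53 on the log2 scale (SE 0.12; edgeR adjusted p = 0.0063). Cpt1a, which loads acyl groups onto carnitine and is blocked by malonyl-CoA, was at 27.3, 29.2 and 27.2 CPM after saline and 23.0, 21.3 and 28.5 CPM after IL-10. Both lowest values came from IL-10 hearts, IL-10 heart 3 lay among the saline hearts, and the difference did not pass (log2 -0.20, SE 0.13, edgeR adjusted p = 0.329). The inner-membrane partner Cpt2 and the carnitine-acylcarnitine carrier Slc25a20 had log2 fold changes of 0.28 and 0.24 with overlapping groups (edgeR adjusted p = 0.141 and 0.207), and Cpt2 was called without IL-10 heart 3 (0.0405). Cpt1b, the muscle form of the entry enzyme, held 14, 22 and 5 counts in the saline hearts and 8, 10 and 5 in the IL-10 hearts and did not pass the count filter. GENCODE gives 81.4% of the exonic bases of Cpt1b also to Gm44502 on the same strand, a gene at 0 to 2 counts per heart, and whether shared reads set the low count of Cpt1b was not tested.

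All 3 acyl-CoA dehydrogenases called carry out the opening step of a turn, each for its own chain length. Acads, for short chains, was at 55.9, 66.6 and 71.1 CPM after saline and 124, 105 and 96.3 CPM after IL-10. Its lowest IL-10 heart was well above its highest saline heart, and it rose by 0.75 on the log2 scale (SE 0.12; edgeR adjusted p = 0.0010). Acadm, for medium chains, was at 512, 582 and 414 CPM after saline and 699, 835 and 667 CPM after IL-10, apart as well (log2 0.55, SE 0.14, edgeR adjusted p = 0.0176). Acadvl, for very long chains, was at 221, 263 and 221 CPM after saline and 317, 337 and 269 CPM after IL-10 and rose by 0.39 (SE 0.12, edgeR adjusted p = 0.0475), with IL-10 heart 3 just above saline heart 2. This is the called member closest to the threshold, and its call was lost without saline heart 1 or 3 or IL-10 heart 1 or 2, and with upper-quartile scaling or library size alone (edgeR adjusted p = 0.0805 and 0.0949). The call for Acadm was lost without saline heart 1 or 3 or IL-10 heart 2, with an edgeR adjusted p of 0.0576 to 0.106. Exons of Dvl2 on the opposite strand cover 42.9% of the exonic bases of Acadvl, in a library kit that does not mark strand, and Dvl2 itself averaged 3.53 CPM after saline and 4.23 CPM after IL-10. Acadl, for long chains, was at 483, 585 and 435 CPM after saline and 549, 608 and 544 CPM after IL-10. Its groups overlapped (log2 0.18, SE 0.13, edgeR adjusted p = 0.398).

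Of the 6 genes that complete a turn of the cycle 5 rose in hearts, and in each of the 6 every IL-10 heart exceeded every saline heart. Hadh, the 3-hydroxyacyl-CoA dehydrogenase for shorter chains, was at 257, 265 and 221 CPM after saline and 417, 420.0 and 363 CPM after IL-10. The lowest IL-10 heart was well above the highest saline heart, and Hadh rose by 0.69 on the log2 scale (SE 0.12; edgeR adjusted p = 0.0014). Acaa2, the mitochondrial 3-ketoacyl-CoA thiolase, was at 347, 357 and 330.1 CPM after saline and 567, 593 and 457 CPM after IL-10 (log2 0.64, SE 0.13, edgeR adjusted p = 0.0030). Echs1, which hydrates short-chain enoyl-CoA, was at 158, 177 and 169 CPM after saline and 278, 247 and 221 CPM after IL-10 (log2 0.56, SE 0.12, edgeR adjusted p = 0.0047). For both, IL-10 heart 3 was the lowest of its group and still above all saline hearts. Acat1, the acetoacetyl-CoA thiolase that also serves ketone body use, was at 392, 417 and 317 CPM after saline and 482, 583 and 507 CPM after IL-10 (log2 0.48, SE 0.13, edgeR adjusted p = 0.0225). Its lowest IL-10 heart was closer to the highest saline heart than in Hadh or Acaa2, and its call was lost without saline heart 1 or 3 or IL-10 heart 2 (edgeR adjusted p of 0.0587 to 0.119).

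Hadha and Hadhb encode the alpha and beta subunits of the mitochondrial trifunctional protein, which carries hydratase, dehydrogenase and thiolase activities for long chains. Hadhb was at 751, 807 and 660.3 CPM after saline and 1165, 1279.7 and 1056 CPM after IL-10 and rose by 0.66 on the log2 scale (SE 0.13; edgeR adjusted p = 0.0033). Hadha was at 661, 722 and 571 CPM after saline and 787, 873 and 779 CPM after IL-10, apart between groups but with a smaller difference that did not pass (log2 0.32, SE 0.13, edgeR adjusted p = 0.107); it was called by the DESeq2 Wald test (0.0378), and whether the differences of these genes differ from each other was not tested. The genes lie head to head on chromosome 5, Hadha on the minus strand (30118304 to 30155162) and Hadhb on the plus strand (30155248 to 30184593). The 85 bases between these GENCODE gene ends are shown because the stretch flanks both genes. They are part of the RefSeq promoter of Hadhb on GRCm38.p6, where the RefSeq starts lie 273 bases apart, and are written along the plus strand with both matches of the GC box GGGCGG in capitals.

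Hadha-Hadhb interval, chr5:30155163-30155247, plus strand: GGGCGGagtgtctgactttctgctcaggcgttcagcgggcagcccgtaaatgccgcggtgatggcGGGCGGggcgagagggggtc

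Promoters of RefSeq (250 bases before to 50 after each start) were found for 26 of the 33 members, as 27 entries because Acsl1 has 2. The direct repeat AGGTCANAGGTCA, the textbook site of PPAR with RXR, was in 0 of the 27 and in 0.0396% of all 32851 promoters, and the looser AGGNCANAGGNCA in 0 and 0.381%. The extended half-site AAGGTCA, bound by oestrogen-related receptors, was in the Acadm promoter alone, or 3.7%, against 4.72% of all promoters. GGGCGG was in 17 of the 27 (63%) against 35.7% of all, CCAAT in 12 (44.4%) against 37.4%, and TATAAA in 0 against 13.6%. Both strands were searched, and AGGTCANAGGTCA, when its N is A, also holds AAGGTCA. Member promoters had a median of 17 CG dinucleotides and 60.7% G and C, against 7 and 52.7% over all promoters. These are matches of letters in a window, not sites of binding. The upstream stretches of Acadm, which holds the single half-site match, and of Mlycd, the gene with the smallest p of the set in hearts, are given 5′ to 3′ on the strand of the gene, ending where an annotated exon begins, with capitals for AAGGTCA (read as its reverse complement) in Acadm and for CCAAT in Mlycd.

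Acadm, chr3:153944644-153944893, minus strand: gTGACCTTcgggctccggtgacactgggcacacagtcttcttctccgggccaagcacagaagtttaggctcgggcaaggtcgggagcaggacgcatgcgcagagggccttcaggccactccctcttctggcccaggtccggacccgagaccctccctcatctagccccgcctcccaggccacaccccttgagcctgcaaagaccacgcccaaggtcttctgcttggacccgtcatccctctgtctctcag

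Mlycd, chr8:119394644-119394877, plus strand: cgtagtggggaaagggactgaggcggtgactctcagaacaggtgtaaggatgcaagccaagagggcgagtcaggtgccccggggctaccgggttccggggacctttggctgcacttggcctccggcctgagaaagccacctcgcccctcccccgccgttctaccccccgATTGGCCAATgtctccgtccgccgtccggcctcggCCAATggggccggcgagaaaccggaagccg

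The match in Acadm lies 249 bases before the start, and those in Mlycd 81, 76 and 46 bases before it, the first and second of them side by side on opposite strands.

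All 3 auxiliary enzymes rose in hearts. They reshape the double bonds of unsaturated fatty acids so that these can enter the cycle. Eci1, the mitochondrial enoyl-CoA isomerase, was at 99.5, 97.9 and 78.0 CPM after saline and 169.7, 178 and 141 CPM after IL-10, the largest rise of the set at 0.83 on the log2 scale (SE 0.13; edgeR adjusted p = 0.0006). The lowest IL-10 heart was above the highest saline heart by a wide margin. Decr1, the 2,4-dienoyl-CoA reductase, was at 228, 228 and 193 CPM after saline and 305, 379 and 298 CPM after IL-10 (log2 0.60, SE 0.13, edgeR adjusted p = 0.0054). Eci2, an isomerase found in peroxisomes and mitochondria, was at 85.1, 99.2 and 92.8 CPM after saline and 123, 139 and 106 CPM after IL-10 (log2 0.41, SE 0.12, edgeR adjusted p = 0.0315). Neither gene overlapped between groups, but the call for Eci2 was lost without saline heart 1, saline heart 3, IL-10 heart 1 or IL-10 heart 2 and with upper-quartile scaling or library size alone (edgeR adjusted p of 0.0534 to 0.166).

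Of the electron transfer genes 1 of 3 rose. Etfa, the alpha subunit of the electron transfer flavoprotein, was at 207, 250.5 and 180.3 CPM after saline and 288, 331 and 266 CPM after IL-10 (log2 0.47, SE 0.13, edgeR adjusted p = 0.0278), without overlap, and its call was lost without saline heart 1 or 3 or IL-10 heart 1 or 2 (0.0513 to 0.145). Etfdh, which passes the electrons to ubiquinone, was at 346, 397 and 279 CPM after saline and 405, 521 and 400.1 CPM after IL-10. It was apart between groups by a narrow margin and did not pass (log2 0.38, SE 0.15, edgeR adjusted p = 0.1003), though it was called without saline heart 2 (0.0393) and with no filter on low counts (0.0330). Etfb, the beta subunit, was at 10.7, 12.5 and 9.42 CPM after saline and 15.7, 13.0 and 11.2 CPM after IL-10. Per kb of exonic length this is 9.35 ± 1.35 CPM after saline, beside 116 ± 19.3 for Etfa. GENCODE gives 58.2% of its exonic bases also to Gm45233 and Mir7051, both at 0 counts in hearts, and the part of this overlap in the low count was not tested. Its groups overlapped (log2 0.30, SE 0.17, edgeR adjusted p = 0.264).

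The acyl-CoA thioesterases, which release free fatty acids from coenzyme A, held 0 calls among 3 in hearts. Acot1 was at 3.95, 3.35 and 4.29 CPM after saline and 5.39, 5.66 and 4.78 CPM after IL-10, low but apart between groups (log2 0.44, SE 0.22, edgeR adjusted p = 0.198). Acot2 and Acot13 had log2 0.11 and 0.30 with overlapping groups (edgeR adjusted p = 0.655 and 0.143). Acot1 and Acot2 are close copies: 13.6% of the 50-base stretches of Acot1 also occur in Acot2, so reads may be split between them, and their summed counts gave log2 0.15 (edgeR adjusted p = 0.505).

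Among the genes that tune the pathway, Mlycd, the malonyl-CoA decarboxylase that removes the inhibitor of the entry step, was at 40.3, 40.5 and 41.9 CPM after saline and 74.8, 70.7 and 60.9 CPM after IL-10. The saline hearts lay close together, all IL-10 hearts were above them, and Mlycd rose by 0.75 on the log2 scale (SE 0.11; edgeR adjusted p = 0.0005). Ppara, the nuclear receptor that activates many genes of fatty acid oxidation, was at 11.6, 15.2 and 10.0 CPM after saline and 19.5, 16.1 and 13.9 CPM after IL-10, with IL-10 heart 3 below saline heart 2 (log2 0.43, SE 0.17, edgeR adjusted p = 0.112). Its coactivator Ppargc1a was at 62.8, 59.7 and 44.4 CPM after saline and 65.4, 82.6 and 56.5 CPM after IL-10, also overlapping (log2 0.29, SE 0.15, edgeR adjusted p = 0.207). Pdk4, the kinase that shuts pyruvate dehydrogenase when fat is burned, was at 171, 263 and 146 CPM after saline and 142, 276 and 292 CPM after IL-10. IL-10 heart 1 was the lowest of all 6 hearts (log2 0.29, SE 0.23, edgeR adjusted p = 0.438). Ucp3, a mitochondrial carrier of muscle, was at 5.49, 10.9 and 4.68 CPM after saline and 10.1, 10.9 and 9.28 CPM after IL-10 (log2 0.52, SE 0.25, edgeR adjusted p = 0.177). Saline heart 2 was level with the highest IL-10 heart, and without it Ucp3 was called (log2 0.99, edgeR adjusted p = 0.0039), as was Ppara (log2 0.61, edgeR adjusted p = 0.0316).

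The hearts differed within groups in the same order for most members. Saline heart 3 was the lowest of all 6 hearts for 23 of the 32 tested members and saline heart 1 for 6, while IL-10 heart 2 was the highest for 22 and IL-10 heart 1 for 7. These are ranks of CPM after TMM, whose factors were 0.920 for IL-10 heart 2 and 1.03 for IL-10 heart 1, so the order depends on the scaling. The 33 members together took 1.21%, 1.42% and 1.11% of the raw counts in saline hearts and 1.71%, 1.71% and 1.50% in IL-10 hearts, so the highest saline heart was below the lowest IL-10 heart. Of 12 cardiomyocyte markers 3 were higher and 1 lower, with sums of 48694 to 58281 CPM after saline and 46373 to 53992 after IL-10, and with libraries scaled on them 17 members rose. Red blood cell genes were lower, 5 of 5 tested, with sums of 582.5 to 1190 CPM after saline and 300.4 to 548 after IL-10. Fibroblast genes went both ways, 3 of 9 higher and 3 lower. Macrophage genes held 0 higher and 1 lower of 11 tested, at 729 to 1209 and 999 to 1129 CPM. Endothelial genes held 0 higher and 2 lower of 9, and smooth muscle genes 0 and 2 of 6. White adipocyte markers were low, 3.00 to 5.45 and 1.34 to 6.90 CPM summed over 8 genes with Lep at 0. Brown adipocyte markers summed to 113 to 144 and 166 to 212 CPM with 1 of 4 tested higher, Otop1 at 0. That list includes Ppara, itself a member, at means of 12.3 CPM after saline and 16.5 CPM after IL-10. Its sum is therefore not separate from the members. The part of these cell types in the rises was not tested.

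Other genes of lipid and energy metabolism were read from lists of the same pathway. In hearts 9 of 17 tested genes of lipid droplets and triglyceride rose and 0 fell, among them Dgat2 (log2 1.04) and Agpat2 (0.55), which build triglyceride, and Fitm2 (0.59), which helps droplets form. Of 12 further mitochondrial fatty acid enzymes 5 rose and 1 fell, and the smallest p were those of Acad12 (0.90), a relative of the dehydrogenases, Ech1 (0.77), a dienoyl-CoA isomerase, and Pccb (0.43), a propionyl-CoA carboxylase subunit. Of 6 further genes listed under carnitine and malonyl-CoA 3 rose, and Cpt1c fell (-0.87). The rises were Slc25a29 (1.25), the carnitine importer Slc22a5 (0.68) and Acacb (0.45). Slc25a29 was low, at means of 1.99 CPM after saline and 4.78 CPM after IL-10. Acacb makes the malonyl-CoA that Mlycd removes and is named here after its value was seen. Peroxisomal oxidation had 2 of 16 higher, Phyh (0.72) and Scp2 (0.47). Among ketone body genes Bdh1, which interconverts the main ketone bodies, rose (0.72).

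Further uptake genes had 2 of 10 higher, the lipoprotein receptor Vldlr (0.76) and the fatty acid transporter Slc27a1 (0.56), and further acyl-CoA synthetases 1 of 8, Acss1 (0.70), which activates acetate. Among 20 further regulators 3 rose, Klf15 (1.10), Rxra (0.62), the partner of PPAR alpha, and Esrrg (0.40), and 1 fell. Of 13 genes of pyruvate and glucose entry 2 rose, Pdk2 (0.69) and the insulin-responsive glucose transporter Slc2a4 (0.54), while the basal transporter Slc2a1 fell (-0.81). Fatty acid synthesis had 2 of 12 higher, Thrsp (1.25) and Me1 (0.36), with a median log2 of -0.11. The respiratory chain was like the members: 12 of 26 nuclear subunits, or 46.2%, rose and 0 fell, at a median log2 of 0.39, with Cox6c (0.61) and Sdhc (0.51) among those of smallest p. In the TCA cycle 4 of 13 rose, led by Idh2 (0.80), the mitochondrial isocitrate dehydrogenase. The shares of rises in the respiratory chain list and in the lipid droplet list (52.9%) were thus close to or above that of the members.

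**Figure D3:**
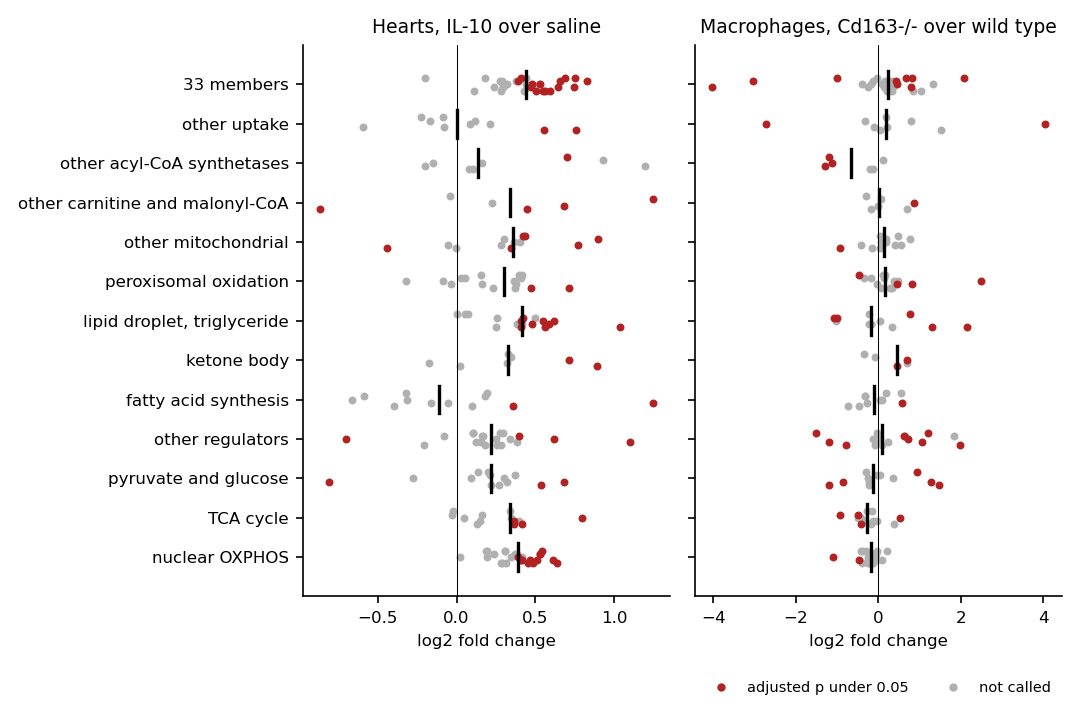
Log2 fold change of each tested gene in the members and in 12 other lists, for hearts (IL-10 over saline, left) and macrophages (Cd163-/- over wild type, right); red points passed the adjusted p of 0.05, grey ones did not, and black bars are list medians. In hearts the medians of the members, lipid droplet and respiratory chain lists lie near 0.4, and in macrophages the list medians lie on both sides of 0.

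In macrophages the set split. Fabp3, Acsl1 and Eci2 were lower in Cd163-/- cells, while Cpt1a, Hadhb, Hadh, Acaa2, Acat1 and Acot1 were higher. Of 29 members tested these are 6 higher (20.7%) and 3 lower (10.3%), where 13.1% of all 13861 genes tested rose and 13.3% fell (same edgeR test and threshold). These shares lie close to those of all genes and are not read as a result about the set. In 20 members both knockout libraries were above both wild-type libraries, 69% of those tested, against 35.3% of all genes, and in 6 members both were below, against 34.1%. The median log2 fold change was 0.24 over the members and 0.012 over all genes, and 21 of 29 members were above 0, against 50.9% of all genes. Leaving out a library leaves a lone library in its group. In runs of this kind no rise kept its call when either knockout library was left out. Without a wild-type library the genes called changed. The log2 fold changes of the rises stayed above 0 in these runs, the lowest being 0.34 in Hadhb. Those of the falls stayed below 0, from -4.28 to -3.75 in Fabp3, -3.39 to -2.56 in Acsl1 and -1.06 to -0.95 in Eci2.

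**Figure D4:**
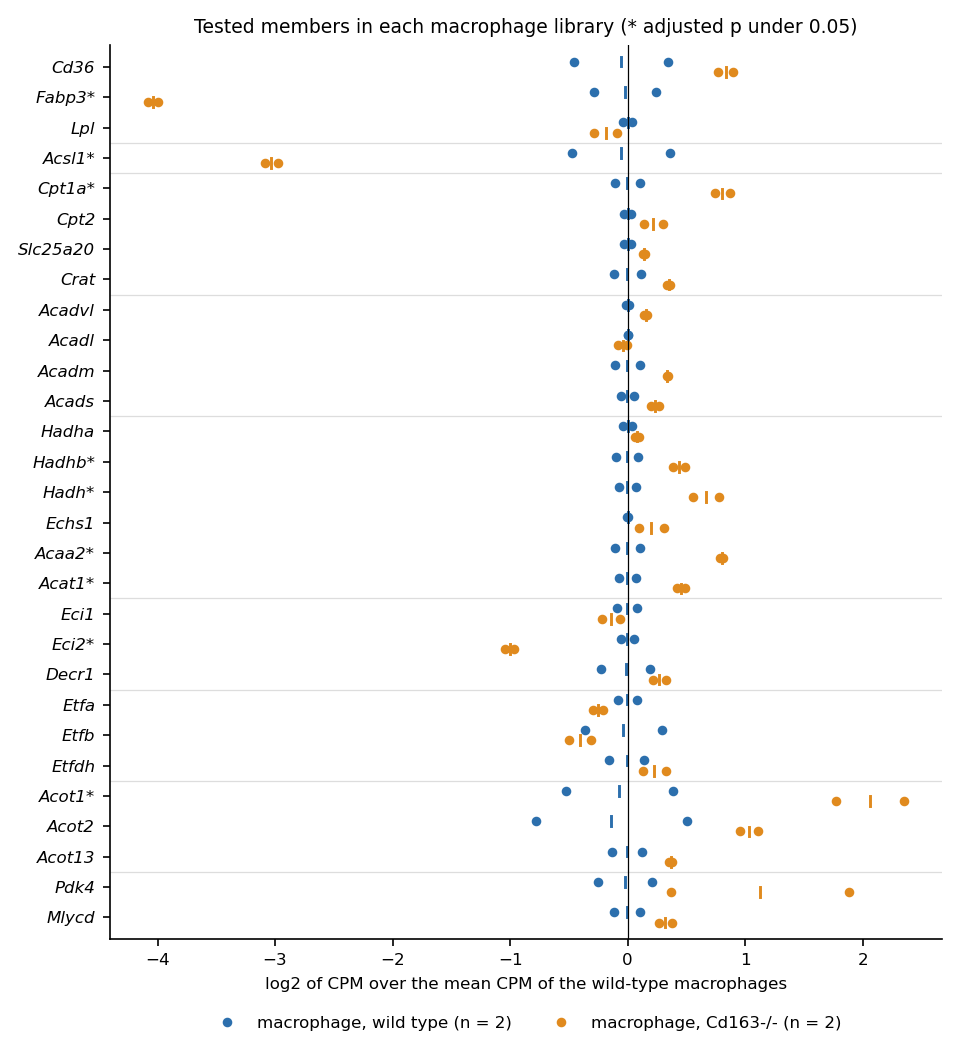
Each tested member in each macrophage library as the log2 of its CPM over the mean of the wild-type libraries (blue, wild type; orange, Cd163-/-; ticks, group means; n = 2 per group), with an asterisk where the adjusted p was under 0.05. The orange points of Fabp3, Acsl1 and Eci2 lie far to the left, and those of Acot1 far to the right.

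Fabp3 (chromosome 4, 130308595 to 130315463) was at 57.8 and 83.5 CPM in wild-type and 4.43 and 4.17 CPM in knockout libraries. The knockout libraries held 89 and 75 counts beside 973 and 1314, and Fabp3 fell by 4.03 on the log2 scale (SE 0.23; edgeR adjusted p = 0.0006). Exons of Zcchc17 and Gm10570 on the opposite strand cover 19.6% of its exonic bases, and Zcchc17 was at 25.4 and 23.1 CPM in the groups. The 12 cardiomyocyte markers, all detected in the cultures, summed to 54.2 to 82.4 CPM in wild-type and 40.3 to 65.0 CPM in knockout libraries, with 1 of 10 tested lower, and their part in the level of Fabp3 was not tested. Acsl1 (chromosome 8, 46471037 to 46536051) was at 318 and 566 CPM in wild-type and 51.9 and 56.3 CPM in knockout libraries. The wild-type libraries differed from each other, yet both were far above the knockout libraries, and Acsl1 fell by 3.03 on the log2 scale (SE 0.29; edgeR adjusted p = 0.0022). RefSeq gives Acsl1 a pair of promoters with different makeup, shown for the gene whose level differed second most here, with GGGCGG in capitals in the upstream promoter and CCAAT (read as ATTGG) in the downstream promoter; gene counts do not tell which was used.

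Acsl1 upstream promoter, chr8:46470787-46471036, plus strand: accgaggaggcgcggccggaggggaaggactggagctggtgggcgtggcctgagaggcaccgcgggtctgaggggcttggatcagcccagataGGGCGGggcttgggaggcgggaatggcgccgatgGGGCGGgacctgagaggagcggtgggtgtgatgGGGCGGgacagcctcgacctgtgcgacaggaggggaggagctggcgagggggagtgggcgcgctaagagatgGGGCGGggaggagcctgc

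Acsl1 downstream promoter, chr8:46490716-46490965, plus strand: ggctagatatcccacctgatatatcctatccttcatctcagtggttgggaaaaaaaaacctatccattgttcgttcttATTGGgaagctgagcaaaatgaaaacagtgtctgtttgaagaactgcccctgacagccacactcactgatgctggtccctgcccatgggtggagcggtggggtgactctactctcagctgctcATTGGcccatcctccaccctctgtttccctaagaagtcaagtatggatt

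The upstream window holds 4 matches of GGGCGG and 0 of CCAAT, and the downstream window 0 of GGGCGG and 2 of CCAAT. Eci2 was at 63.0 and 68.3 CPM in wild-type and 33.7 and 31.9 CPM in knockout libraries, without overlap, and fell by 1.00 on the log2 scale (SE 0.11; edgeR adjusted p = 0.0037), beside its relative Eci1 at 14.6 and 13.0 CPM in wild-type and 13.2 and 11.8 CPM in knockout libraries (log2 -0.14, edgeR adjusted p = 0.558). Of 6 further synthetases tested 3 fell as well, Acsl4 (log2 -1.28), the acetate-activating Acss2 (-1.20) and Acsl5 (-1.13).

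Cpt1a was the called riser at the entry to mitochondria, at 60.6 and 52.4 CPM in wild-type and 103 and 94.4 CPM in knockout libraries, and rose by 0.81 on the log2 scale (SE 0.13; edgeR adjusted p = 0.0092). Cpt1b was at 0 and 0 counts in wild-type and 1 and 1 in knockout libraries, with the overlap with Gm44502 given above. The 4 enzymes of the cycle that rose were Acaa2 at 24.5 and 21.1 CPM in wild-type and 39.3 and 40.1 CPM in knockout libraries (log2 0.80, SE 0.13, edgeR adjusted p = 0.0105) and 3 more. Hadh was at 45.3 and 40.9 CPM in wild-type and 74.0 and 63.5 CPM in knockout libraries (log2 0.67, SE 0.13, edgeR adjusted p = 0.0168). Acat1 was at 36.4 and 40.3 CPM in wild-type and 53.9 and 51.2 CPM in knockout libraries (log2 0.46, SE 0.12, edgeR adjusted p = 0.0371). In each the knockout libraries were above the wild-type libraries. Hadhb was at 48.2 and 42.3 CPM in wild-type and 63.6 and 59.1 CPM in knockout libraries (log2 0.44, SE 0.12, edgeR adjusted p = 0.0464), while its partner Hadha was at 114 and 121 CPM in wild-type and 123 and 126 CPM in knockout libraries (log2 0.08, SE 0.11, edgeR adjusted p = 0.625). Acot1 rested on few reads, 4 and 7 counts in wild-type and 35 and 21 in knockout libraries (log2 2.09, SE 0.49, edgeR adjusted p = 0.029). Under the DESeq2 Wald test Hadhb, Acat1 and Acot1 did not pass (adjusted p = 0.0757, 0.0611 and 0.0563).

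The promoter of Cpt1a, the member called higher in macrophages at the entry step, lies as RefSeq places it inside the gene model of GENCODE but outside its exons. It is shown with both GGGCGG matches (read as CCGCCC) in capitals, 75 and 59 bases before the start.

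Cpt1a, chr19:3323051-3323284, plus strand: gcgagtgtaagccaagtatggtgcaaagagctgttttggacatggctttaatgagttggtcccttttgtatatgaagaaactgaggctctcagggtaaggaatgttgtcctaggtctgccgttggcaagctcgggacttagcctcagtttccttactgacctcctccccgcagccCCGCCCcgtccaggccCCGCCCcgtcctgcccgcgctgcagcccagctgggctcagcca

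Members that did not pass in macrophages included Cd36 at 2409.8 and 1377 CPM in wild-type and 3234 and 3527 CPM in knockout libraries. Both knockout libraries were higher, but the wild-type libraries differed widely from each other (log2 0.84, SE 0.31, edgeR adjusted p = 0.0943), and without wild-type library 1 Cd36 was called (log2 1.29, edgeR adjusted p = 0.0013). With all libraries Cd36 passed the DESeq2 Wald test (adjusted p = 0.0133) and, with no filter, edgeR's test (8.56e-05). Cd36 itself, at 21672 to 64920 counts, was far above the filter. The setting without it tested 24809 genes, with 2680 called higher and 2476 lower, beside 1817 and 1846 of 13861 in the main fit. Lpl was at 2641 and 2496 CPM in wild-type and 2108 and 2412 CPM in knockout libraries (log2 -0.18, SE 0.20, edgeR adjusted p = 0.531). Acot2 was at 4.81 and 1.97 CPM in wild-type and 6.58 and 7.33 CPM in knockout libraries and Pdk4 at 0.832 and 1.14 CPM in wild-type and 3.64 and 1.28 CPM in knockout libraries (edgeR adjusted p = 0.113 and 0.137), both with 1 library apart from its partner, and both were called with no filter (0.0011 and 0.0071), Acot2 also without wild-type library 1 (0.0053). None of the 4 acyl-CoA dehydrogenases and none of the 3 electron transfer genes passed, with log2 fold changes from -0.40 (Etfb) to 0.34 (Acadm). Crat and Acot13 had log2 0.35 and 0.36 (edgeR adjusted p = 0.0867 and 0.13), Mlycd 0.32 (0.172), Decr1 0.27 (0.276), Cpt2 0.22 (0.284), Echs1 0.20 (0.258) and Slc25a20 0.14 (0.446). With library size alone Crat, Acadm and Acot13 were called (edgeR adjusted p = 0.0284, 0.0295 and 0.0479), under a scaling that also moved the median of all genes to log2 0.188. Crat and Acadm were called with upper-quartile scaling too (0.0451 and 0.0461), where that median was 0.1255. A crossed replicate block, added after seeing the data, called Cd36 and Acot2 (0.0144 and 0.0239). Ppara held 3, 1, 4 and 6 counts, Ppargc1a 4, 2, 9 and 9 and Ucp3 2, 2, 1 and 1, wild type first, and none of them passed the count filter.

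In the related lists, lipid droplet genes of macrophages went both ways, 3 of 12 higher and 2 lower, with Lpin1 (log2 2.15), a phosphatidate phosphatase, and the triglyceride lipase Pnpla2 (1.30) higher and the acyltransferase Gpam lower, which fell by 1.00. Angptl4, an inhibitor of lipoprotein lipase, fell by 2.72 on the log2 scale. The transporter Slc27a6 was higher at 0.178 and 0.0636 CPM in wild-type and 1.69 and 2.61 CPM in knockout libraries, and these were the calls among 9 further uptake genes. Of 17 further regulators 5 rose and 3 fell, among the latter Esrra (-0.79) and Nrip1 (-1.19), and Mef2c rose (1.97). The other calls of this list are named after their values were seen. Nr1d1 (1.22), Pparg (1.07), Rxra (0.73) and Rxrb (0.63) rose, and Ppargc1b (-1.50) fell. Peroxisomal genes had 3 of 15 higher, led by the very long chain fatty acid transporter Abcd2 (2.50), and 1 lower. Among ketone body genes Oxct1, which activates acetoacetate, rose (0.69). The carnitine octanoyltransferase Crot (0.87) rose and the thioesterase Acot9 (-0.92) fell, each the only call of its list. The nuclear respiratory chain had 0 of 26 higher and 2 lower, Cycs (-1.10) and Cyc1 (-0.46), at a median log2 of -0.18, and the TCA cycle 1 of 13 higher and 3 lower. Genes of pyruvate and glucose entry had 3 of 12 higher and 2 lower, with Pdp1 (1.48) and Pdk2 (1.28) higher and Slc2a1 (-1.20) lower, and fatty acid synthesis 1 of 10 higher, Fads1 (0.57). Markers of other cells moved with the genotype: 5 of 7 mesothelial genes tested were higher, with sums of 95.8 to 149 CPM in wild-type and 301.6 to 377 in knockout libraries. Of 7 fibroblast genes tested 5 were higher and 1 lower (1789 to 2516 and 3923 to 5149 CPM). Of 6 neutrophil genes 2 were tested and both were lower (166 to 329 and 49.6 to 98.1 CPM). Most of that sum was Csf3r, at 157 and 308 CPM in wild-type and 46.8 and 95.8 CPM in knockout libraries. S100a9, Ly6g, Retnlg and Cxcr2 were at 0 or 1 count in each library. Of 5 smooth muscle genes tested 2 were higher (189 to 248 and 424 to 720 CPM). Most of that sum was Acta2, at 170 and 219 CPM in wild-type and 687 and 404 CPM in knockout libraries, while Myh11 and Tagln were not called. Of 11 macrophage genes 3 were higher and 1 lower. The 8 white adipocyte genes summed to at most 0.0636 CPM, with Adipoq, Cidec and Lep at 0. Whether RNA of other cells, as read from the mesothelial, fibroblast, smooth muscle and neutrophil lists, had a part in the members' differences was not tested.

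Set side by side, the 2 comparisons share no library, and 29 members were tested in both. Called higher in both were 4, Hadhb, Hadh, Acaa2 and Acat1, all from the completing steps of the cycle. The share of all genes called higher in both was not determined, so this count is not read as a result about the set. In macrophages these calls were lost when either knockout library was left out. Eci2 was called in opposite directions, where it rose by 0.41 on the log2 scale in hearts and fell by 1.00 in macrophages. Another 10 were called in hearts alone, 4 in macrophages alone and 10 in neither. Fabp3 and Acsl1, the largest differences in macrophages, had log2 0.44 and 0.28 in hearts, and Cpt1a, higher in knockout macrophages, had -0.20 in hearts. The comparisons differ in tissue, in treatment and in what was varied, and whether a gene's difference differed between the comparisons was not tested.

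**Figure D5:**
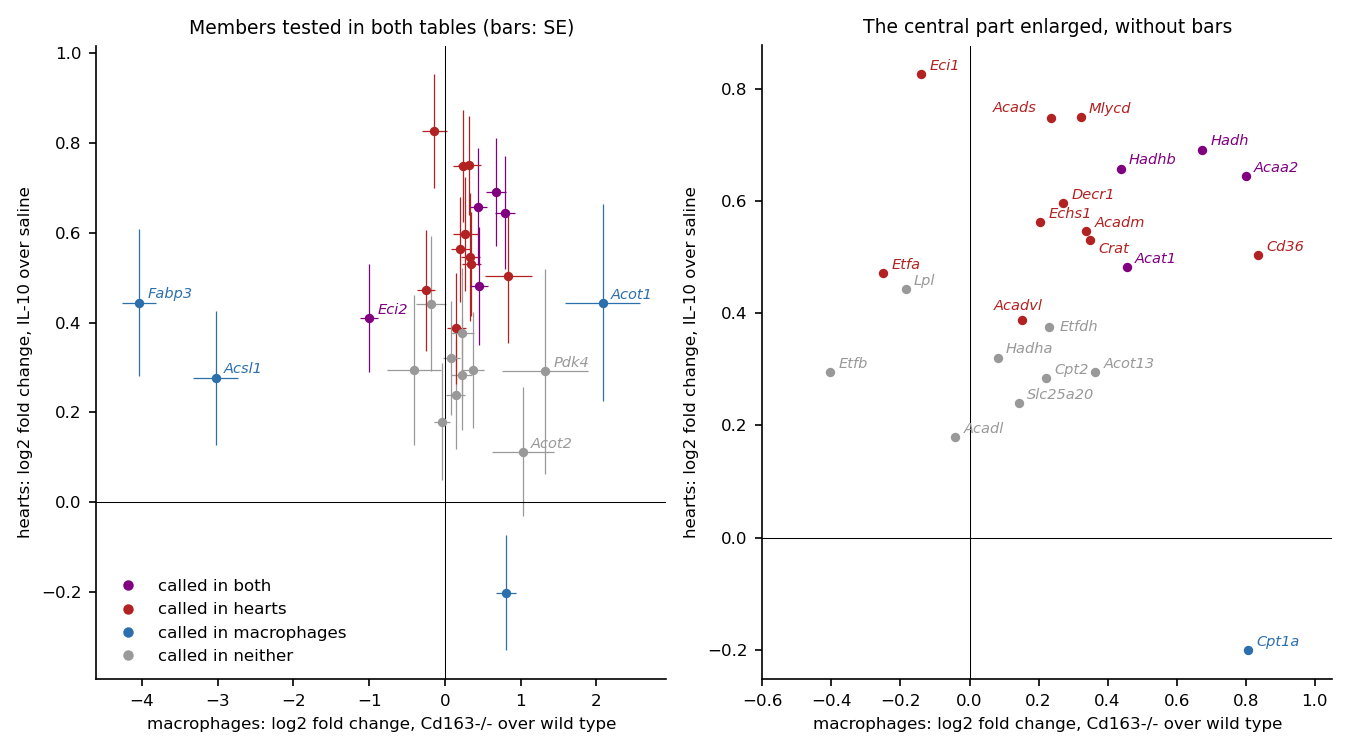
Log2 fold change of the 29 members tested in both tables, macrophages (Cd163-/- over wild type) on the x axis and hearts (IL-10 over saline) on the y axis, with SE bars in the left panel and the central part enlarged in the right panel. Purple points were called in both, with Eci2 the purple point left of 0 on the x axis, and Cpt1a is the point below 0 on the y axis.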

How the data were processed

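Poly(A) RNA was prepared with a NEBNext Ultra kit, which does not mark strand, per the labels' protocols, whose text mentions livers. Per the submitters' processing notes, the authors aligned reads with HISAT2 (version 2.2.1) and made the deposited counts per gene with featureCounts (version not given in the sources used here). Both GRCm39 and mm10 are named as builds, so coordinates and exonic lengths here are those of GENCODE M21 and RefSeq on GRCm38, used only to describe genes. The member counts were taken as deposited, 52081 of 55357 identifiers were named from GENCODE, and 0 columns lacked a sample.

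Each table was fitted alone in R 4.3.3 with edgeR 4.0.16 (filterByExpr with a minimum count of 10 and total of 15, TMM, quasi-likelihood test, Benjamini-Hochberg over all tested genes, calls at an adjusted p under 0.05). The SE is the absolute log2 fold change over the square root of F. A value of the edgeR test is given as its adjusted p throughout. Levels are means ± SD over libraries. The procedure was tested on simulated data. Alternatives were DESeq2 size factors and Wald test (DESeq2 1.42.0), limma-voom (limma 3.58.1), library size alone, upper-quartile scaling, a filter of 1 CPM or none, the replicate number as a block, an absolute log2 of at least 0.5, mitochondrial genes left out, scaling on cardiomyocyte markers, and each library left out, where a lone library was taken to vary like the other group. A crossed block was added after seeing the data. Members and lists were chosen with earlier results of these data known. All members are given, and of each other list up to 3 called genes with the smallest p. Some genes that this rule names are not reported here.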

Additional observations from a re-analysis of the deposited data

How the results depend on the processing

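In hearts the 15 members called higher were between 12 and 18 under the alternatives other than leaving out a library, 11 with an absolute log2 of at least 0.5, and 9 to 21 with each heart left out. In every one of these runs 0 members fell. Of the 15, 9 were called in each of 10 alternatives and with each heart left out: Crat, Acads, Hadhb, Hadh, Echs1, Acaa2, Eci1, Decr1 and Mlycd. In macrophages the count of members called higher, 6 in the main fit, was 4 to 9 under the alternatives other than the block. The 3 lower calls, Fabp3, Acsl1 and Eci2, remained in all of these. With a macrophage library left out, its group holds a lone library, and no higher call was kept when either knockout library was left out. Same-numbered hearts did not deviate together from their group means (correlations of -0.179 to 0.0421), and no heart correlated best with its own number. In macrophages the correlation was -0.113 for both numbers. With 2 libraries per group the deviations mirror each other, so this is a single value and cannot show whether the numbers are paired. With the replicate number as a block, 17 heart members rose, and 3 macrophage members rose and 3 fell. A crossed replicate block in macrophages, added after seeing the data, gave 8 higher and 3 lower. Library size alone moved the median log2 fold change of all genes in macrophages from 0.012 to 0.188 and raised the share of higher calls from 49.6% to 68.6% (62.2% with upper-quartile scaling), and 9 members rose. In hearts these shares were 50.6%, 35.6% and 39.0%. Acadl in macrophages, not called, was at log2 0.071 with upper-quartile scaling and 0.134 with library size alone. Eci1, also not called, was at 0.038 with library size alone, and both genes were below 0 with TMM. These scalings also moved the median of all genes up, from 0.012 with TMM to 0.1255 with upper-quartile scaling and 0.188 with library size alone. Members under the count filter, Cpt1b in hearts and Cpt1b, Ucp3, Ppara and Ppargc1a in macrophages, were compared only with no filter, where few counts limit the precision.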
